A study of Homo sapiens with 20 samples.

Results

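The genes described here are the ligands and receptors of the epidermal growth factor (EGF) family, followed because HBEGF was higher after the KDM4 inhibitor QC6352 in both cell lines of the study. The family list named 10 genes, the ligands HBEGF, AREG, EREG, TGFA, BTC and EGF and the receptors EGFR, ERBB2, ERBB3 and ERBB4. Of these, 8 had a probe set with that symbol, 1 probe set each, among 17687 genes on the array, and AREG and ERBB2 were not analysed here. The study measured RNA of Rh30 and Rh41, established alveolar rhabdomyosarcoma lines, on 20 Clariom S arrays after knockdown or inhibition of KDM4 histone lysine demethylases. Rh30 carried either a KDM4B or a control short hairpin RNA for 72 h (2 arrays each), or received KDM4C or control small interfering RNA for 72 h (2 each). Rh30 and Rh41 were treated with DMSO or with QC6352 at 200 nM for 48 h (3 arrays each). All values are log2 signals, so that a difference of 1 is a doubling, and levels are compared only within a probe set. The labels call the replicates biological. They name no clone of either line, and a p value here measures only the spread between these arrays.

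EGF family ligands are made as membrane-anchored precursors that metalloproteases release from the cell surface. A released ligand binds EGFR or ERBB4, while ERBB2 has no known ligand and ERBB3 has little kinase activity of its own, so that both signal mainly in pairs with another ERBB receptor. The activated receptors signal through RAS and MAP kinases and through PI3 kinase and AKT, which switch on early response genes and feedback inhibitors. HBEGF, the heparin-binding EGF-like growth factor, is itself known as a gene that growth factor signalling and cell stress can induce.

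The labels of 10 of the 14 Rh30 arrays contradict each other, which touches the values of every Rh30 comparison except that of the hairpin, and the calls of the hairpin too through the shared estimate of the spread. The title of each array gives one group and the submitters' sample name another, and 1 title reads shRNA where the source name of that array reads siRNA. Groups here follow the titles, and values by sample name are given where they change a result. KDM4B stood at 6.01 and 6.15 in the hairpin arrays against 6.74 and 7.3 in their controls, arrays without a conflict, a fall by 0.94 ± 0.23 (SE; limma adjusted p = 0.0120) that missed the threshold without shControl 2, shKDM4B 1 or shKDM4B 2 (limma adjusted p = 0.05004 to 0.157), and in a fit of the 4 hairpin arrays alone (0.0555). KDM4C was at 6.25 and 6.32 in the arrays titled KDM4C siRNA against 6.48 and 6.54 in their controls, a difference of -0.23 ± 0.19 (limma adjusted p = 0.651) by title and 0.23 by sample name. Array medians were 6.72 to 6.75 in the 4 siRNA arrays, 6.95 to 6.99 in the other Rh30 arrays and 7.22 to 7.25 in Rh41. By sample name, these 4 siRNA arrays belong to the DMSO and QC6352 groups of Rh30. With QC6352 in Rh30, 6427 genes had a limma adjusted p under 0.05 by title and 89 by sample name. Which label is right was not tested. Per array, 23 background probe sets had a median between 3.64 and 4.01, with single ones from 2.71 to 8.05, so no single level separates detected from undetected genes.

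The promoter windows of HBEGF and EGFR, the ligand that was higher and the receptor that was lower after QC6352 in Rh30, are shown first. Both are the 250 bases before the RefSeq start site on GRCh38.p14, 5′ to 3′ on the gene's strand, chr5:140346604-140346853 (minus) for HBEGF and chr7:55018767-55019016 (plus) for the first of the windows that RefSeq lists for EGFR. Capitals mark GC boxes, matches of GGGCGG on either strand.
HBEGF: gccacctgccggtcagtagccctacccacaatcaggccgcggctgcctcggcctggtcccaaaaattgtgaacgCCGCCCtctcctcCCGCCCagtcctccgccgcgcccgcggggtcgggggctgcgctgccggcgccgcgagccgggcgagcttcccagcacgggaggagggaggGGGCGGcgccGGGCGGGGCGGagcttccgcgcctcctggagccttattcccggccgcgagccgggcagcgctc
EGFR: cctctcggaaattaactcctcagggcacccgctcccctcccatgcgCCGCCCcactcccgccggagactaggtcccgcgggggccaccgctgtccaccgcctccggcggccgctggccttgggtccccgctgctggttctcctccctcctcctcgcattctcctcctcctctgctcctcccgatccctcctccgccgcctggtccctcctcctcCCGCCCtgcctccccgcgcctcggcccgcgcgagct
The HBEGF window held 5 GC boxes, beginning 176, 163, 73, 63 and 58 bases before the start, the last of which overlaps its neighbour by 1 base. The EGFR window held 2, beginning 204 and 36 bases before it. GC boxes, the sites of SP1-type factors, were found in 42.6% of all 35116 windows of this length. The HBEGF window was 76.4% G and C with 33 CpG steps, each above 91.9% of the windows, and the EGFR window was 73.6% G and C with 25. Neither printed window held an AP-1 motif (TGANTCA, in 6.57% of all windows), a TATA box (TATAAA, in 10.7%) or the ETS motif CCGGAAG (in 8.52%), all searched on both strands. An E-box (CANNTG, in 61.8%) lay 248 bases before the HBEGF start, and the printed EGFR window held none. The second RefSeq window of EGFR, not printed, held AP-1 motifs 232 and 136 bases, TATA boxes 146 and 36 bases and E-boxes 236 and 52 bases before its start. Of the other ligands, TGFA had 3 GC boxes in its first window, EREG, BTC and EGF had none, and a TATA box lay 32 bases before the EREG start. EREG and BTC sit on chromosome 4 in a row of ligand genes, EPGN, EREG, AREG and BTC, with no other RefSeq protein-coding gene between them. EGF is on the same chromosome, TGFA and ERBB4 are on chromosome 2, ERBB3 is on 12, HBEGF is on 5 and EGFR is on 7.

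HBEGF was 6.50-fold higher with QC6352 in Rh30 and 4.0-fold higher in Rh41. These values chose the gene and are given without a test. In Rh30 it stood at 7.02, 7.07 and 6.76 with DMSO and at 9.96, 9.17 and 9.82 with QC6352, a difference of 2.70 ± 0.21 (SE). In Rh41 it stood at 5.38, 4.89 and 5.23 with DMSO and at 6.81, 7.47 and 7.22 with QC6352, a difference of 2.00 ± 0.21. The groups did not overlap in either line, as for 44.5% of all genes in Rh30 (25% higher and 19.5% lower with QC6352) and 41.1% in Rh41 (22.9% higher and 18.3% lower). The response of Rh41 was smaller than that of Rh30 by 0.70 ± 0.30 on the log2 scale, again without a test, while by sample name it was larger by 2.29 ± 0.68. Without QC6352, HBEGF was lower in Rh41 than in Rh30, by 1.78 ± 0.21, so that treated Rh41 arrays, at a mean of 7.17 ± 0.34 (SD, n = 3), came to the level of untreated Rh30, at 6.95 ± 0.17 (SD, n = 3).

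HBEGF did not pass the test with the KDM4B hairpin. It was at 6.84 and 6.41 with the hairpin and at 7.31 and 7.03 with its control, lower in both arrays, by 0.55 ± 0.26 (95% interval -1.09 to 0.0015; limma adjusted p = 0.217). The difference was -0.33 without shKDM4B 2. The hairpin groups did not overlap for 51.7% of all genes (28.7% higher, 22.9% lower). In the siRNA comparison HBEGF was at 7.73 and 7.13 with KDM4C siRNA and at 7.22 and 7.12 with control siRNA, groups that overlap. The difference was 0.26 ± 0.26 (95% interval -0.29 to 0.80; limma adjusted p = 0.733), and -0.05 without siKDM4C 1.

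Ordered by group mean, HBEGF was highest in Rh30 with QC6352 (9.65) and lowest in Rh41 with DMSO (5.17), and each of these groups lay clear of its neighbour in every array. The 6 groups between them ran from 7.43 (KDM4C siRNA) through 7.17 in control siRNA, control hairpin and Rh41 with QC6352 to 6.95 (Rh30 with DMSO) and 6.63 (KDM4B hairpin), and neighbours in this order overlapped. After subtraction of each array's median, control siRNA no longer overlapped control hairpin, and the ends of the order were the same. Group means of HBEGF spanned 4.48, between groups of the comparisons by which it was chosen. Those of ERBB3 spanned 2.18 (more than 90.7%), of ERBB4 1.10 (59.1%), and of the other 5 members 0.54 to 0.93.

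**Figure D1:**
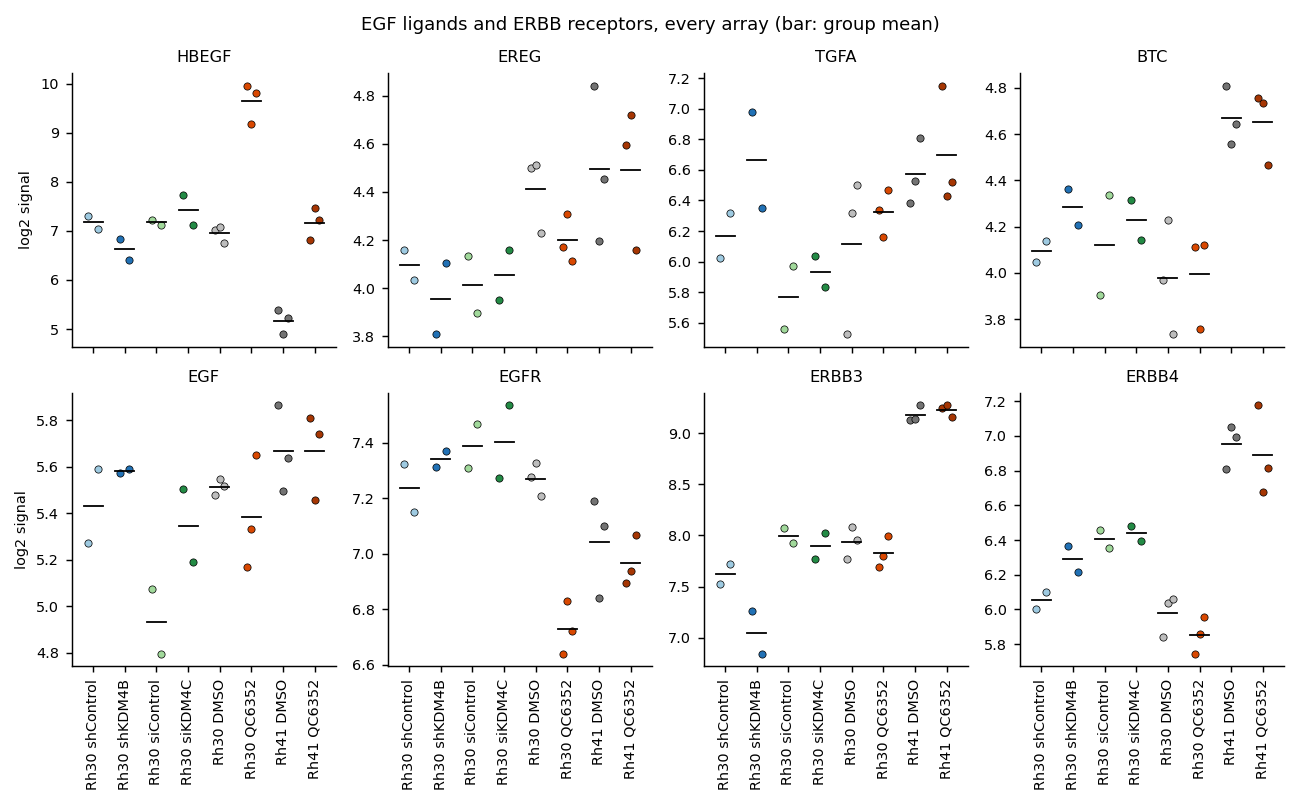
Log2 signal of the 8 measured EGF ligand and ERBB receptor genes (1 panel each, own vertical scale) in every array, with the 8 groups by title on the horizontal axis. Points are arrays and bars are group means. HBEGF stands at 9.17 to 9.96 in Rh30 with QC6352 and at 4.89 to 5.38 in Rh41 with DMSO. ERBB3 and ERBB4 are highest in both Rh41 groups as deposited. With array medians subtracted, mean ERBB4 in Rh41 with QC6352 (-0.34) was below that in Rh30 with KDM4C siRNA (-0.28) and control siRNA (-0.31).

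The Rh30 values of HBEGF depend on which label is right. The 3 arrays titled QC6352 were at 9.17 or above and the other 11 Rh30 arrays at 7.73 or below. By sample name, the first of the 3 is a control siRNA array and the other two are the KDM4C siRNA arrays. Grouped that way, HBEGF differed by -0.29 ± 0.48 between QC6352 and DMSO in Rh30, and by 1.14 ± 0.59 between KDM4C and control siRNA (limma adjusted p = 0.435), with control siRNA at 9.96 and 6.76. The Rh41 and hairpin arrays carry no conflict, and their differences of 2.00 and -0.55 are the same under both labels.

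**Figure D2:**
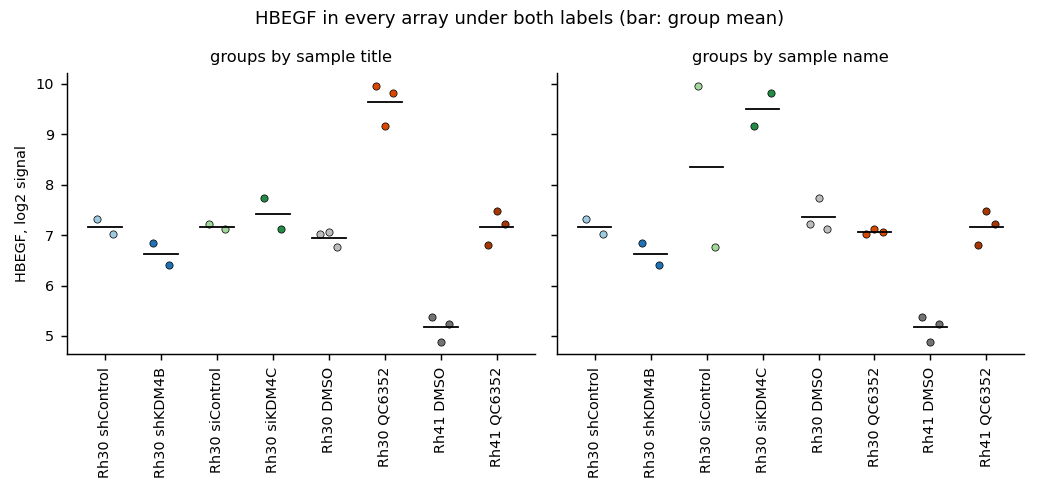
HBEGF log2 signal in every array, grouped by sample title (left) and by the submitters' sample name (right); points are arrays and bars are group means. The 3 high arrays form the Rh30 QC6352 group by title and are split between control siRNA and KDM4C siRNA by sample name, and the Rh41 and hairpin groups are the same in both panels.

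None of the other ligands EREG, TGFA, BTC and EGF passed the test in any of the 4 treatment comparisons. TGFA, transforming growth factor alpha, a ligand of EGFR, was at 5.52, 6.32 and 6.50 in Rh30 with DMSO and at 6.34, 6.16 and 6.47 with QC6352, within the DMSO range. The difference was 0.21 ± 0.23 (95% interval -0.28 to 0.70; limma adjusted p = 0.541), and -0.08 without Rh30 DMSO 1. In Rh41 it was at 6.39, 6.53 and 6.81 with DMSO and at 7.15, 6.43 and 6.52 with QC6352, overlapping groups (0.13 ± 0.23; limma adjusted p = 0.800). TGFA was at 6.98 and 6.35 with the KDM4B hairpin against 6.02 and 6.32 in the controls, no overlap but 0.50 ± 0.29 apart (limma adjusted p = 0.325), and 0.18 apart without shKDM4B 1.

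EGF, the founding ligand of the family, was at 5.48, 5.55 and 5.52 in Rh30 with DMSO and at 5.17, 5.33 and 5.65 with QC6352. In Rh41 it ranged from 5.50 to 5.87 with DMSO and from 5.46 to 5.81 with QC6352, a difference of 0.00 ± 0.14 (95% interval -0.29 to 0.30). With KDM4C siRNA it was at 5.50 and 5.19 against 5.07 and 4.80 in the controls, the one member without overlap (38.5% of all genes, 22% higher and 16.5% lower) and with an unadjusted p under 0.05 in that comparison (0.41 ± 0.17; unadjusted p = 0.0276, limma adjusted p = 0.286). The EGF difference was 0.25 without siKDM4C 1, 0.27 without siControl 2 and 0.15 by sample name (limma adjusted p = 0.826). In a fit of only these arrays, and by sample name, 0 of 8 members had an unadjusted p under 0.05. EREG, epiregulin, and BTC, betacellulin, both ligands of EGFR and ERBB4, were low. EREG ranged from 3.81 to 4.84 and BTC from 3.73 to 4.81 over the 20 arrays, against background medians of 3.64 to 4.01, and their 8 treatment differences lay between -0.22 and 0.19.

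EGFR, a receptor for HBEGF, fell with QC6352 in Rh30. It stood at 7.28, 7.33 and 7.21 with DMSO and at 6.64, 6.83 and 6.72 with QC6352. All QC6352 arrays were below all DMSO arrays, a fall by 0.54 ± 0.11 (1.46-fold lower; limma adjusted p = 0.000451). By sample name the difference was 0.03 ± 0.14 (limma adjusted p = 0.930). In Rh41 EGFR was at 7.19, 6.84 and 7.10 with DMSO and at 6.90, 6.94 and 7.07 with QC6352. These groups overlap, with a difference of -0.08 ± 0.11 (95% interval -0.30 to 0.15; limma adjusted p = 0.722). The responses of the lines differed by 0.46 ± 0.15 (Rh41 minus Rh30; limma adjusted p = 0.0365). That call was lost without any of Rh30 DMSO 1 or 2, Rh30 QC6352 1 or 3, Rh41 DMSO 2, or Rh41 QC6352 2 or 3 (difference 0.36 to 0.48, limma adjusted p = 0.0572 to 0.113), and with arrays centred on their medians (0.43, limma adjusted p = 0.0545). EGFR stood at 7.31 and 7.37 with the KDM4B hairpin against 7.33 and 7.15, and at 7.27 and 7.54 with KDM4C siRNA against 7.31 and 7.47, overlapping in both.

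ERBB3, a neuregulin receptor, fell with the KDM4B hairpin. It was at 7.53 and 7.72 with the control hairpin and at 7.26 and 6.84 with the KDM4B hairpin, both below the controls, and it fell by 0.57 ± 0.15 (1.49-fold lower; limma adjusted p = 0.0160). The call was lost without shControl 2 (-0.48, limma adjusted p = 0.124) or shKDM4B 2 (-0.36, limma adjusted p = 0.253), and in a fit of the 4 hairpin arrays alone (limma adjusted p = 0.125) or with the other arrays grouped by sample name (limma adjusted p = 0.0644). With QC6352 the ERBB3 groups overlapped in both lines, at 7.77, 8.08 and 7.96 with DMSO against 7.69, 7.79 and 7.99 in Rh30 and at 9.13, 9.14 and 9.27 against 9.25, 9.27 and 9.16 in Rh41. The differences were -0.11 ± 0.12 and 0.05 ± 0.12 (limma adjusted p = 0.543 and 0.862). With KDM4C siRNA it was at 7.77 and 8.02 against 8.07 and 7.93 in the controls.

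ERBB4, which binds both EGF-type ligands and neuregulins, passed no treatment test. It stood at 5.84, 6.04 and 6.06 in Rh30 with DMSO and at 5.74, 5.86 and 5.95 with QC6352 (-0.13 ± 0.12; limma adjusted p = 0.459). In Rh41 it stood at 6.81, 7.05 and 6.99 with DMSO and at 7.18, 6.68 and 6.82 with QC6352 (-0.06 ± 0.12; limma adjusted p = 0.813). With the KDM4B hairpin both arrays were higher, at 6.37 and 6.22 against 6.0 and 6.10, without passing the test (0.24 ± 0.14; limma adjusted p = 0.361).

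Counted together, 1 of 7 members tested beside HBEGF passed with QC6352 in Rh30 (36.3% of all genes did), 0 of 7 in Rh41 (19.7%; 0 also at an unadjusted p under 0.05) and 1 of 7 in the difference between the lines (20% of all genes, 10.5% above 0 and 9.45% below). Of 8 members, 1 passed with the KDM4B hairpin (11.6% of all genes) and 0 with KDM4C siRNA (0.458%; 1 at an unadjusted p under 0.05). Nothing is read from the counts with QC6352, since the family was followed for HBEGF in those comparisons.

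**Figure D3:**
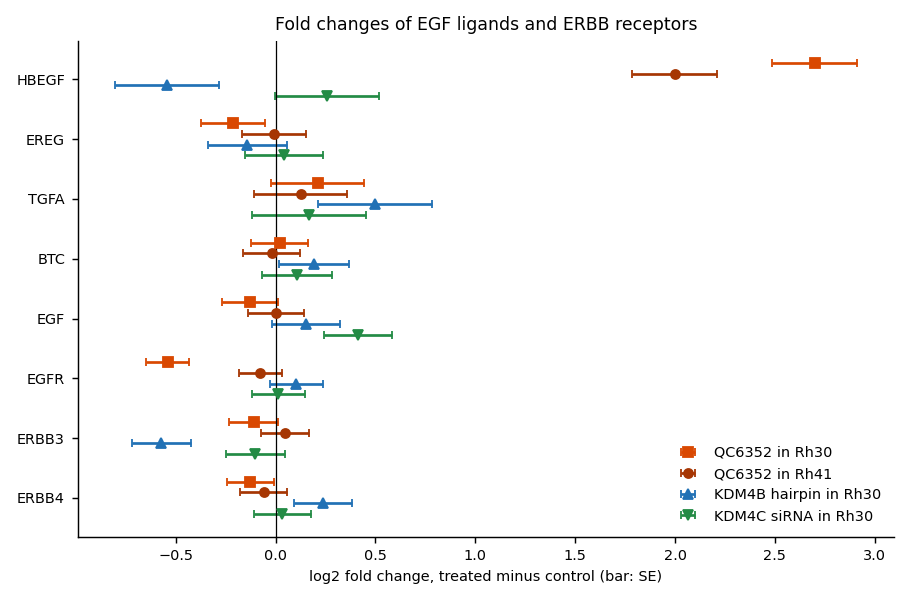
Log2 fold change of the 8 measured members (horizontal axis, treated minus control mean) in the 4 treatment comparisons, with bars of 1 SE. HBEGF stands apart at 2.70 and 2.00 with QC6352, EGFR lies at -0.54 with QC6352 in Rh30 and ERBB3 at -0.57 with the KDM4B hairpin.

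Between the lines without inhibitor, ERBB3 and ERBB4 were higher in Rh41. The median of all genes was 0.19 higher in Rh41 than in Rh30 as deposited and -0.02 or -0.06 after quantile normalization or centring, so the differences are set against 0.19. ERBB3 was at 9.13, 9.14 and 9.27 in Rh41 against 7.77, 8.08 and 7.96 in Rh30, with no overlap and 1.24 ± 0.12 higher (2.37-fold; limma adjusted p = 5.77e-08; 0.96 after quantile normalization). ERBB4 was at 6.81, 7.05 and 6.99 against 5.84, 6.04 and 6.06, also without overlap and 0.97 ± 0.12 higher (1.96-fold; limma adjusted p = 9.54e-07; 0.71 after quantile normalization, 0.52 by sample name). BTC was at 4.56 to 4.81 in Rh41 against 3.73 to 4.23 in Rh30, where the background medians of the same arrays were 3.92 to 3.98. Its measured difference of 0.69 (limma adjusted p = 0.000387) was 0.44 with arrays centred. With the Rh30 values around the background medians, the size of the BTC difference is uncertain. EGFR was 0.23 ± 0.11 lower in Rh41 (limma adjusted p = 0.0770), and 0.49 lower after quantile normalization (limma adjusted p = 0.000590). TGFA (0.46 ± 0.23; limma adjusted p = 0.0991), EGF (0.15 ± 0.14; limma adjusted p = 0.370) and EREG (0.08 ± 0.16; limma adjusted p = 0.679) did not pass, and TGFA did without Rh30 DMSO 3 (0.65; limma adjusted p = 0.0332). By sample name TGFA (0.72), EGF (0.54) and EREG (0.50) passed (limma adjusted p = 0.0105, 0.0131 and 0.0167). In all, 3 of 7 members passed, all higher in Rh41, where 57.6% of all genes did (40.7% higher and 16.8% lower). With EGFR and HBEGF, both lower in Rh41, these 3 had no overlap between the lines, as 65.2% of all genes (45.5% higher and 19.7% lower).

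The neuregulins and epigen complete the ligands of these receptors. NRG1, a ligand of ERBB3 and ERBB4, was at 9.43, 9.34 and 9.43 in Rh41 with DMSO and at 3.65, 3.42 and 3.8 in Rh30. It was below the background medians of the same Rh30 arrays (3.92 to 3.98). Across all 14 Rh30 arrays it stayed between 3.26 and 3.91. On the deposited scale, the measured difference of 5.78 (limma adjusted p = 5.08e-18) may be too small, since the Rh30 values are near the background medians. With QC6352 in Rh41, NRG1 fell to 8.93, 9.07 and 9.0, below every DMSO array, by 0.40 ± 0.11 (limma adjusted p = 0.0113; 0.0502 without Rh41 QC6352 1). NRG2, also a neuregulin, was 0.63 ± 0.15 higher in Rh41 with DMSO (limma adjusted p = 0.00137; 0.37 and 0.0501 after quantile normalization). EPGN, NRG3 and NRG4 passed in none of the 6 comparisons, and EPGN and NRG4 lay between 3.01 and 4.08 in every array.

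**Figure D4:**
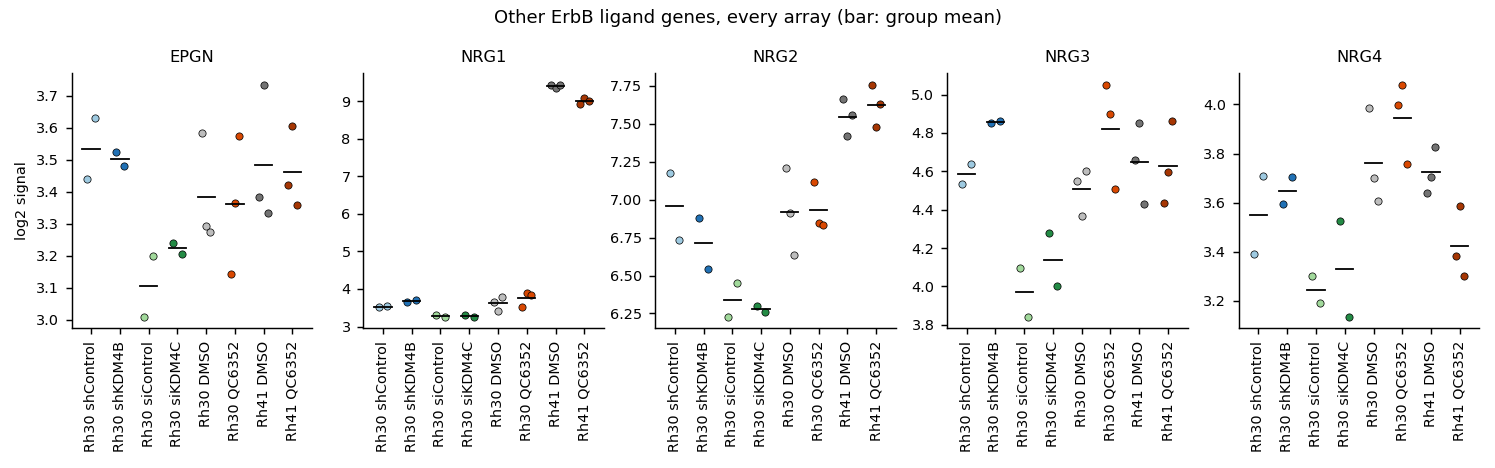
Log2 signal of EPGN and NRG1 to NRG4 in every array (own vertical scale for each panel), with the 8 groups by title on the horizontal axis; points are arrays and bars are group means. NRG1 lies at 3.26 to 3.91 in all Rh30 groups and at 8.93 to 9.43 in both Rh41 groups.

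Among genes that handle ligand release, the shedding list of ADAM metalloproteases, their regulators and partners had 3 rises and 3 falls among 10 measured genes with QC6352 in Rh30 (median 0.30, against 0.05 for all genes, of which 19.9% rose and 16.5% fell) and 3 rises and 2 falls in Rh41 (0.08 against 0.02, with 10.9% and 8.8%). ADAM17, a protease known to release HBEGF precursors, rose in both lines, by 0.69 ± 0.09 in Rh30 and 0.53 ± 0.09 in Rh41 (limma adjusted p = 4.15e-06 and 0.000235). TIMP3, an inhibitor of ADAM17, rose too, by 1.57 ± 0.11 and 1.13 ± 0.11 (limma adjusted p = 1.09e-09 and 3.98e-07). ADAM12 fell by 1.89 ± 0.16 and 1.07 ± 0.16, and CD9, a tetraspanin partner of the HBEGF precursor, fell by 0.54 ± 0.09 in each line (limma adjusted p = 0.000303 or less for both genes). The Rh41 calls of ADAM17 and ADAM12 missed the threshold when Rh30 arrays were grouped by sample name. With the KDM4B hairpin ADAM17 also rose, by 0.90 ± 0.11 (limma adjusted p = 1.80e-05), and ADAM12 rose too, by 0.88 ± 0.19 (limma adjusted p = 0.00456), opposite to its direction with QC6352. The ADAM12 call with the hairpin was lost without shControl 1 (0.76, limma adjusted p = 0.0635) or shKDM4B 1 (0.79, limma adjusted p = 0.0590), and with the other arrays grouped by sample name.

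Downstream of the receptors, the early response list (transcription factors and other genes induced soon after growth factor signalling) had 19 rises and 1 fall among 28 genes with QC6352 in Rh30, with a median of 1.00, and 10 rises and 0 falls in Rh41, with a median of 0.25. Of all genes, 19.9% rose and 16.5% fell in Rh30, and 10.9% and 8.8% in Rh41. The pathway lists were chosen with earlier results of these data known, so nothing is read from the counts of any of them. Whether ERBB receptors had a part in these changes was not tested. NR4A1 rose by 3.19 ± 0.15, ATF3 by 3.05 ± 0.13 and JUNB by 2.12 ± 0.13 in Rh30, the largest rises of the list there, against differences of 0.35, 0.27 and 0.41 in Rh41. The largest rises in Rh41 were those of CCN1 (1.18 ± 0.08), CCN2 (0.87 ± 0.14) and KLF10 (0.64 ± 0.09; limma adjusted p = 0.000145 or less for all 3), and CCN2 missed the threshold there when Rh30 arrays were grouped by sample name. The feedback list (phosphatases and inhibitors of the MAP kinase pathway) had 8 rises and 2 falls among 13 genes in Rh30 and 3 and 1 in Rh41. DUSP1, a MAP kinase phosphatase, rose by 1.89 ± 0.11 and 0.99 ± 0.11, while SPRY2, a feedback inhibitor of receptor signalling, fell by 1.67 ± 0.09 in Rh30. With the KDM4B hairpin, early response genes had 10 rises and 1 fall and feedback genes 5 rises and 1 fall, where 5.26% of all genes rose and 6.31% fell. Both counts of rises were smaller without shControl 1 or shKDM4B 1. By sample name, 0 of the 98 pathway genes passed with QC6352 in Rh30.

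The 21 measured adaptor, RAS and PI3 kinase genes split 5 up and 6 down in Rh30 and 5 up and 1 down in Rh41, and the 21 genes of receptor turnover 3 up and 7 down in Rh30 and 3 up and 2 down in Rh41. CBL, the ubiquitin ligase that marks activated EGFR for degradation, rose by 0.60 ± 0.10 in Rh30 and 0.58 ± 0.10 in Rh41 (limma adjusted p = 9.81e-05 and 0.000414). LRIG3, of a family of proteins that regulate ERBB receptors, fell by 1.09 ± 0.10 and 0.45 ± 0.10 (limma adjusted p = 1.16e-07 and 0.00462). Its Rh41 call missed the threshold when Rh30 arrays were grouped by sample name. Over all 6 lists, 38 of 98 genes rose and 19 fell with QC6352 in Rh30, 24 rose and 7 fell in Rh41, and 21 rose and 7 fell with the hairpin, where 19.9% and 16.5%, 10.9% and 8.8%, and 5.26% and 6.31% of all genes did. The hairpin counts were 11 and 4 without shControl 1, 11 and 3 without shKDM4B 1, 14 and 5 without shKDM4B 2, and 12 and 3 in a fit of its 4 arrays alone. With KDM4C siRNA 0 rose and 2 fell (0.266% and 0.192% of all genes), and without siKDM4C 1, 10 rose and 5 fell.

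**Figure D5:**
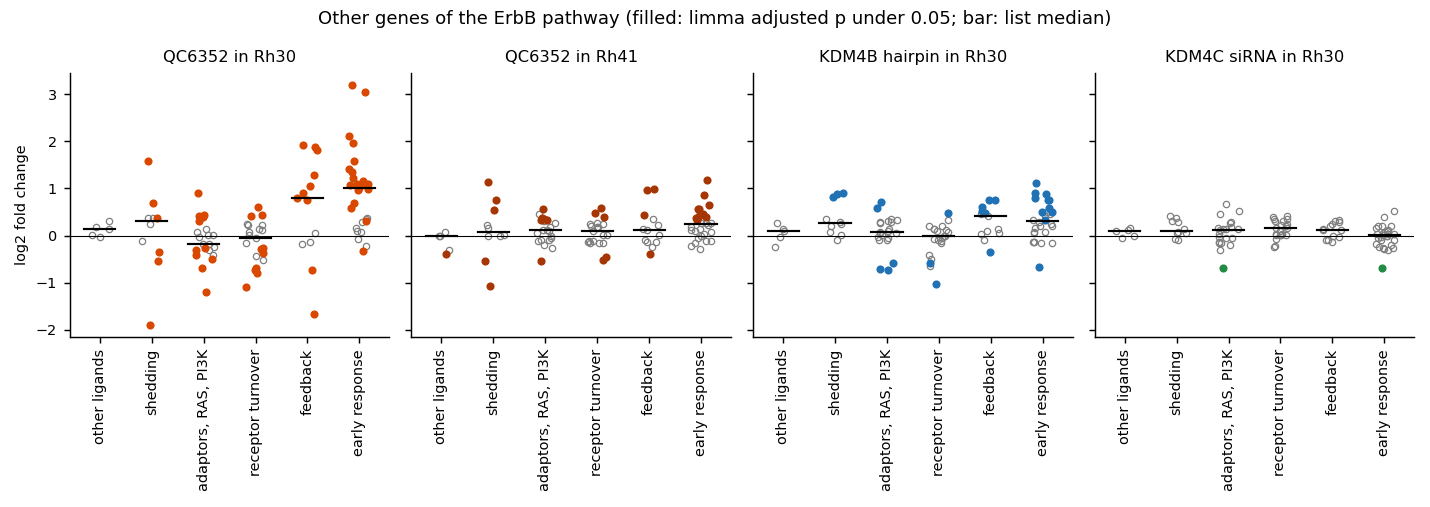
Log2 fold change of the 98 other measured genes of the ErbB pathway in the 4 treatment comparisons, by list on the horizontal axis; filled points have a limma adjusted p under 0.05 and bars are list medians. The early response list has its median at 1.00 with QC6352 in Rh30 and at 0.25 in Rh41.

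Over the 8 group means, the genes most like HBEGF among 8296 genes whose means span at least 1 were ZNF443 (Pearson r = 0.977), TXNDC16 (0.976), MPC2 (0.971), WDR47 (0.958) and GOLGA8O (0.957). For ERBB3 they were RASA2 (0.994), IFT80 (0.992) and TMEM70 (0.991), and for ERBB4 DPH3 (0.991), MRPS23 (0.990) and MAK16 (0.986). These correlations describe 8 points that share controls and cell lines. For HBEGF, the points include the groups of the comparisons by which it was chosen, so its ranking is not independent of that choice.

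Markers of the labelled tumour and of other cell types were looked at beside HBEGF. The summed linear signal of 12 muscle and rhabdomyosarcoma markers was 11078 to 11610 in Rh30 with QC6352 against 17683 to 18024 with DMSO (7 of 12 fell, against 16.5% of all genes), 13642 to 14032 with the KDM4B hairpin against 16464 to 17560 (5 fell and 1 rose, against 6.31% and 5.26%), and 16959 to 18092 against 16724 to 17771 in Rh41 (3 fell and 1 rose, against 8.8% and 10.9%). The sum of 10 epithelial markers, a cell type known for EGF ligands, was 1700 to 1855 against 940 to 1087 in Rh30 with QC6352, where 3 of 10 rose (19.9% of all genes), CLDN4 by 1.91 ± 0.13, KRT8 by 0.46 ± 0.11 and KRT7 by 0.39 ± 0.14. It was 1125 to 1257 against 1058 to 1121 in Rh41, where 1 of 10 rose (10.9% of all genes), KRT18 by 0.45 ± 0.15. With the hairpin it was 1419 to 1501 against 989 to 1056, and CLDN4 rose by 1.5 ± 0.17. EPCAM, which defines epithelium, was at a mean of 4.29 against 4.19 in Rh30 and 4.15 against 4.16 in Rh41, near the background medians. The sum of 9 blood markers was 1612 to 1737 against 414 to 482 in Rh30 and 618 to 709 against 488 to 552 in Rh41. Of the 9, 2 rose in Rh30 (19.9% of all genes) and 2 in Rh41 (10.9%). These were CD68 (3.62 ± 0.11) and CD3E (0.50 ± 0.15) in Rh30 and CD68 (1.31 ± 0.11) and LYZ (0.81 ± 0.15) in Rh41. PTPRC, which defines leukocytes, was at 3.77 against 3.74 in Rh30 and 4.15 against 4.06 in Rh41. Of 9 fibroblast markers, 2 rose in Rh30 (19.9% of all genes), and 1 rose and 1 fell in Rh41 (10.9% and 8.8%). Their sums were 1803 to 2054 against 1203 to 1292, and 1406 to 1456 against 1380 to 1424. Of 7 endothelial markers, 1 fell in Rh30 (16.5% of all genes) and 0 changed in Rh41 (19.7%). Their sums were 426 to 434 against 449 to 508, and 347 to 398 against 363 to 404. The part of other cell types or of differentiation in the HBEGF values was not tested. Fewer cells that make a transcript and less of it per cell cannot be told apart in such bulk samples.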

How the data were processed

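Per the labels, RNA was isolated on columns, 125 ng went into the Whole Transcript Plus assay, and Clariom S human arrays were hybridised. The authors deposited log2 signals. GCOS is named in the submitters' processing notes, while no source used here gives the background correction, summarization or normalization. Of 24351 probe sets 17709 carry 1 gene symbol in the platform table. The highest-mean probe set per gene left 17687 genes. limma 3.58.1 in R 4.3.3 was fitted to all 20 arrays (8 group means by title, 12 residual degrees of freedom), with Benjamini-Hochberg adjustment over all genes and a threshold of 0.05. It was tested on simulated data. The number of arrays limits the precision.

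The members and gene lists were chosen with earlier results of these data known. Named genes are the members, the targets KDM4B and KDM4C, and up to 3 rises and 3 falls per pathway list with the largest change and no overlap of arrays, besides genes of highest correlation. The marker genes named, with EPGN, NRG3 and NRG4 of the ligand list, were named outside this rule. HBEGF was not tested where it had been chosen. Replicate numbers were not shown to pair arrays (correlations of deviations -0.21 to 0.26) and entered as an alternative. No 2 arrays held identical values. Promoter sequences are from RefSeq (GRCh38.p14), with a window for 9 of 10 members. Other alternatives were quantile normalization, centred arrays, a filter on low genes, trended or weighted fits, every probe set, only the arrays compared, groups by sample name, and leaving out each array. Leaving out the 10 arrays with conflicting labels was added after the data were seen, and so was the hairpin comparison by sample name.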

Additional observations from a re-analysis of the deposited data

Results flagged for a closer look

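The responses to QC6352 of the 2 lines differed by limma's test of the difference for the family member EGFR. Of the 98 pathway genes, 13 passed above 0 and 27 below 0, where 10.5% and 9.45% of all genes did. The 21 pathway genes given here were named from those that passed, so their number is no result of the test. Values are the response of Rh41 minus that of Rh30, on the log2 scale. For EGFR the difference was 0.46 ± 0.15 (limma adjusted p = 0.0365), with -0.54 in Rh30 and -0.08 in Rh41. For NRG1 it was -0.53 ± 0.15 (limma adjusted p = 0.0169), with 0.13 in Rh30, where it is near the background medians, and -0.40 in Rh41. The difference was above 0 for ADAM12 (0.82), STAT5B (1.46), PIK3CB (0.88), SOS1 (0.58), RNF41 (0.66), LRIG3 (0.64), EPS15 (0.55), SPRY2 (1.42), SPRY1 (0.76) and JUND (0.89). It was below 0 for TIMP3 (-0.44), AKT1 (-0.98), HGS (-0.59), LRIG1 (-0.48), IER3 (-1.60), DUSP5 (-1.50), DUSP7 (-1.20), NR4A1 (-2.84), ATF3 (-2.79) and JUNB (-1.70). The largest adjusted p among these 20 genes was 0.0469, for TIMP3. The EGFR call held under 11 of 21 alternatives, and several single arrays left out ended it, as given above. The TIMP3 and LRIG1 calls held under 10 of 21 alternatives each, that of PIK3CB under 17 of 21 and that of NRG1 under 17 of 20. Single arrays left out ended the TIMP3 call in 8 cases, the LRIG1 call in 8, the PIK3CB call in 3 (without Rh30 QC6352 1, Rh41 DMSO 1 or Rh41 QC6352 2) and the NRG1 call without Rh30 DMSO 2 (0.0539). All rest on the 6 Rh30 arrays whose labels conflict. By sample name, 1 of the 21 pathway genes passed and 13 had the opposite sign.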

How the results depend on the processing

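With groups by sample name, HBEGF with QC6352 in Rh30 was -0.29 and its difference between lines 2.29, EGFR there was 0.029 and its difference between lines was -0.11, all with turned signs. Signs also turned for TIMP3 -0.050, ADAM17 -0.052, CD9 0.23, STAT5B 0.35, SOS1 0.28, NCK1 0.20, HGS -0.022, LRIG3 0.24, LRIG2 0.47, DUSP1 -0.12, SPRY2 0.10, SPRY1 0.31 and JUND 0.27 in Rh30, and for ADAM12 -0.81, TIMP3 1.18, STAT5B -0.088, SOS1 -0.40, RNF41 -0.088, LRIG3 -0.69, SPRY2 -0.35, SPRY1 -0.29, IER3 0.058, DUSP5 0.38, NR4A1 0.16, ATF3 0.24 and JUNB 0.28 in the difference between lines. By sample name 89 genes passed with QC6352 in Rh30 (0 of 7 members), 1537 in Rh41, 725 with the hairpin (0 of 8 members), 0 with siRNA (2203 at an unadjusted p under 0.05, limma), 762 in the difference (0 of 7 members), and 6 of 7 members between untreated lines. Other HBEGF differences with QC6352 under the alternatives by title were 2.55 to 2.94 in Rh30 and 1.85 to 2.18 in Rh41. Fits of only the arrays compared gave 826 genes with the hairpin (0 of 8 members) and 0 with siRNA (1191 at an unadjusted p under 0.05, limma). For siRNA, 341 genes passed without the lowest 40% of genes, 438 with trend and robust, 9 with array weights and 19 under a replicate block, against 81. Centring and trend each left 0 of 7 members in the difference between lines. Leaving out 1 array gave 5767 to 6119 genes with QC6352 in Rh30, 2646 to 2776 in Rh41, 1039 to 1557 with the hairpin (against 2047; members 0 to 1), 8 to 1789 with siRNA, the highest without siKDM4C 1, 2880 to 3399 in the difference (members 0 to 1) and 3 to 4 members between untreated lines. Between untreated lines, the split of 7202 higher and 2978 lower genes became 4750 and 4919 after quantile normalization and 4617 and 5451 after centring. Under every alternative by title, 22 of 27 named pathway genes passed in Rh30, 17 of 22 in Rh41, 8 of 19 with the hairpin, 0 of 2 with siRNA, 17 of 21 in the difference and 29 of 30 between untreated lines. By sample name 0, 12, 7, 0, 1 and 29 of them passed. All of them had been named for passing by title in the same comparison, a choice that favours the counts by title. The replicate block left 6172 genes with QC6352 in Rh30, 3103 in Rh41, 1620 with the hairpin and 3136 in the difference between lines, and changed no member's call. The cause of these changes was not tested, save that smaller fits hold fewer arrays. On simulated data with 200 changed genes, 2-fold changes were recovered for 84% of genes with the hairpin and 92% with siRNA, and 1.5-fold changes for 40% and 33%. These shares describe the simulated data only, and recovery in the real comparisons was not tested.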
